A study of Mus musculus with 48 samples.

Results

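Genes that mark Kupffer cells, the resident macrophages of the liver, were followed through 16 samples of mouse liver, iris and engrafted liver spheroids. They were picked by name as known Kupffer cell markers, with earlier results of these data known. They are 6 of the 46517 mouse genes counted: Clec4f, Vsig4, Timd4, Cd5l, Folr2 and Marco. The samples were 3 endogenous livers of donor mice, 3 preparations of primary hepatocytes isolated from donor livers, 2 samples of spheroids that such hepatocytes formed in culture, 5 explants taken 2 months after transplantation (tx), and 3 irises without explants. An explant is a set of spheroids engrafted in the anterior chamber of the eye (ACE), dissected together with the iris around it. Every group is labelled WT Albino, strain C57BL/6N, with no further allele or agent, and the labels do not give the day at which the spheroids kept in vitro were taken. Donor and recipient mice carry the same strain label, and the counts were not used to tell whose macrophages the RNA came from.

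Depth, as the total count of a sample, ranged from 5449589 to 6789648 in explants and from 4596550 to 4881817 in irises. It ranged from 3523171 to 3871404 in livers and from 2718518 to 3573075 in hepatocyte preparations, and was 3247327 and 3447643 in the spheroids. Each sample is the sum of 3 technical libraries. Nothing in the labels says that samples of a group came from separate animals or cultures, so p-values measure the spread between these samples. The share of iris in the explants, as solved from the deposited tables, was 82, 68, 81, 72 and 59% in explants 1, 2, 4, 5 and 6. The irises themselves held transcripts of Alb, the gene of serum albumin made by hepatocytes, at 753, 861 and 822 TPM (transcript levels scaled for gene length and depth), against 3310, 3258 and 3097 TPM in the livers.

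Kupffer cells sit inside the liver sinusoids, where they take up particles, bacteria, old erythrocytes and modified lipoproteins from the blood. Their identity depends on the liver: signals from sinusoidal endothelium, stellate cells and hepatocytes induce and hold the program, and monocytes that enter an emptied niche acquire it stepwise, with Timd4 among the last genes to appear. Clec4f encodes a C-type lectin found in mouse almost exclusively on Kupffer cells. Vsig4 encodes the complement receptor CRIg, which binds C3b and its breakdown product. Marco is a scavenger receptor with a collagen-like stalk, and Timd4 a receptor for phosphatidylserine on dying cells. Cd5l encodes AIM, a secreted protein of the scavenger receptor family that is induced by the nuclear receptor LXR. Folr2 encodes folate receptor beta, which many resident macrophages outside the liver carry too.

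The 6 genes lie on 6 chromosomes (build GRCm38, that of the files), and no exon of theirs overlaps an exon of another counted gene. Clec4f spans chr6:83644542-83656187 on the minus strand, Vsig4 chrX:96247203-96293438 (minus), and Timd4 chr11:46810800-46844332 (plus). Cd5l spans chr3:87357881-87371073 (plus), Folr2 chr7:101839990-101845331 (minus), and Marco chr1:120474538-120505024 (minus). The promoter windows of Clec4f, Cd5l and Vsig4 are shown because these 3 genes had the highest levels in liver and were all lower in the explants than in spheroids. Each window runs from 250 bases before to 50 bases after a RefSeq transcription start (GRCm38.p6), 5′ to 3′ on the strand of the gene. The windows are chr6:83656067-83656366 for Clec4f, chr3:87357631-87357930 for Cd5l and chrX:96293389-96293688 for Vsig4. Capitals mark GAGGAA or its reverse complement TTCCTC, letters found in many binding sites of PU.1, a transcription factor that macrophages require.
Clec4f: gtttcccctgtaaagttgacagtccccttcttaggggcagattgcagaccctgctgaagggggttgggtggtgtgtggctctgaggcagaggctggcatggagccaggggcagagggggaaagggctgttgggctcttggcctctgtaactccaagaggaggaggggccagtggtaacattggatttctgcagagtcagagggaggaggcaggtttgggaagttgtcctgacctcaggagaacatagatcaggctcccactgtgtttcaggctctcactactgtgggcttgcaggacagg
Cd5l: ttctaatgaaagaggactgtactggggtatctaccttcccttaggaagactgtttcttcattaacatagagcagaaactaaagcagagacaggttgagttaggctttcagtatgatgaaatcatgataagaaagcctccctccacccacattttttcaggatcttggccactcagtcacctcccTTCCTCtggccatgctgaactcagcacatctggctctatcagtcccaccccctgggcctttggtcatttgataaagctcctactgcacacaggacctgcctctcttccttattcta
Vsig4: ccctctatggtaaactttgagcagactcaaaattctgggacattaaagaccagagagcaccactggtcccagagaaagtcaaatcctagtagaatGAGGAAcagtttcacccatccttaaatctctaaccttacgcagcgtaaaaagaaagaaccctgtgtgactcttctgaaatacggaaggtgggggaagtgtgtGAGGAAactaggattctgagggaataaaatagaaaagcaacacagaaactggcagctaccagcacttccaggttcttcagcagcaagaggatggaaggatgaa
All 6 members are in the RefSeq table, with 7 windows between them, since Folr2 has 2. GAGGAA was found, on either strand, in 3 of the 7 windows, those of Marco, Cd5l and Vsig4, and in 28.3% of all 32851 windows of this length. The letters were absent from the windows of Clec4f, Timd4 and Folr2, which says nothing of PU.1 binding there.

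The levels in liver and iris set the range within which the explants can be read. Cd5l was at 116, 108 and 145 TPM in the livers and at 0.295, 0.315 and 0.298 TPM in the irises, which is 1 count in each iris. Clec4f was at 31.3, 101 and 123 TPM in liver and at 0.243, 1.04 and 0.245 TPM in iris. Vsig4 was at 44.1, 50.8 and 73.3 TPM in liver and 0.404, 0.433 and 0.409 TPM in iris, again 1 count in each. For these 3 genes every liver lay far above every iris.

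Marco was at 11.9, 6.22 and 18.8 TPM in liver and had 1 count in the irises together. Timd4 was the lowest member in liver, at 1.28, 5.51 and 10.01 TPM, and at 0.552, 0.591 and 0 TPM in iris. Folr2 stood apart from the rest, at 7.75, 35.2 and 43.997 TPM in liver and 12.2, 7.14 and 12.9 TPM in iris, so that its groups overlapped. With 22, 12 and 23 counts, it was not near-absent from iris.

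Under edgeR's quasi-likelihood test, a gene was called where its Benjamini-Hochberg adjusted p was under 0.05 and its log2 fold change over 1 in size. In iris against liver 5 of the 6 members could be tested and 5 were lower, where 22.1% of all genes tested were called lower. Clec4f, Vsig4, Cd5l and Marco had at most 4 counts in any iris and passed the filter on low counts through the livers alone. A call of these genes could thus only be lower, and the share of all genes is no measure for them. The log2 fold change was -9.33 ± 0.27 (SE) for Cd5l (adjusted p = 9.68e-09, edgeR) and -2.33 ± 0.58 for Folr2 (adjusted p = 0.00576, edgeR), with Clec4f, Vsig4 and Marco between -8.21 and -7.16. As pooled counts, the irises held Cd5l at 0.00212 of its liver rate (95% exact interval 0.000436 to 0.00621, 3 against 1099 counts). Timd4 was too low to be tested, with 4 counts in the irises against 54 in the livers. These intervals cover counting error alone, and in bulk RNA fewer cells of a type cannot be told apart from less RNA per cell.

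**Figure D1:**
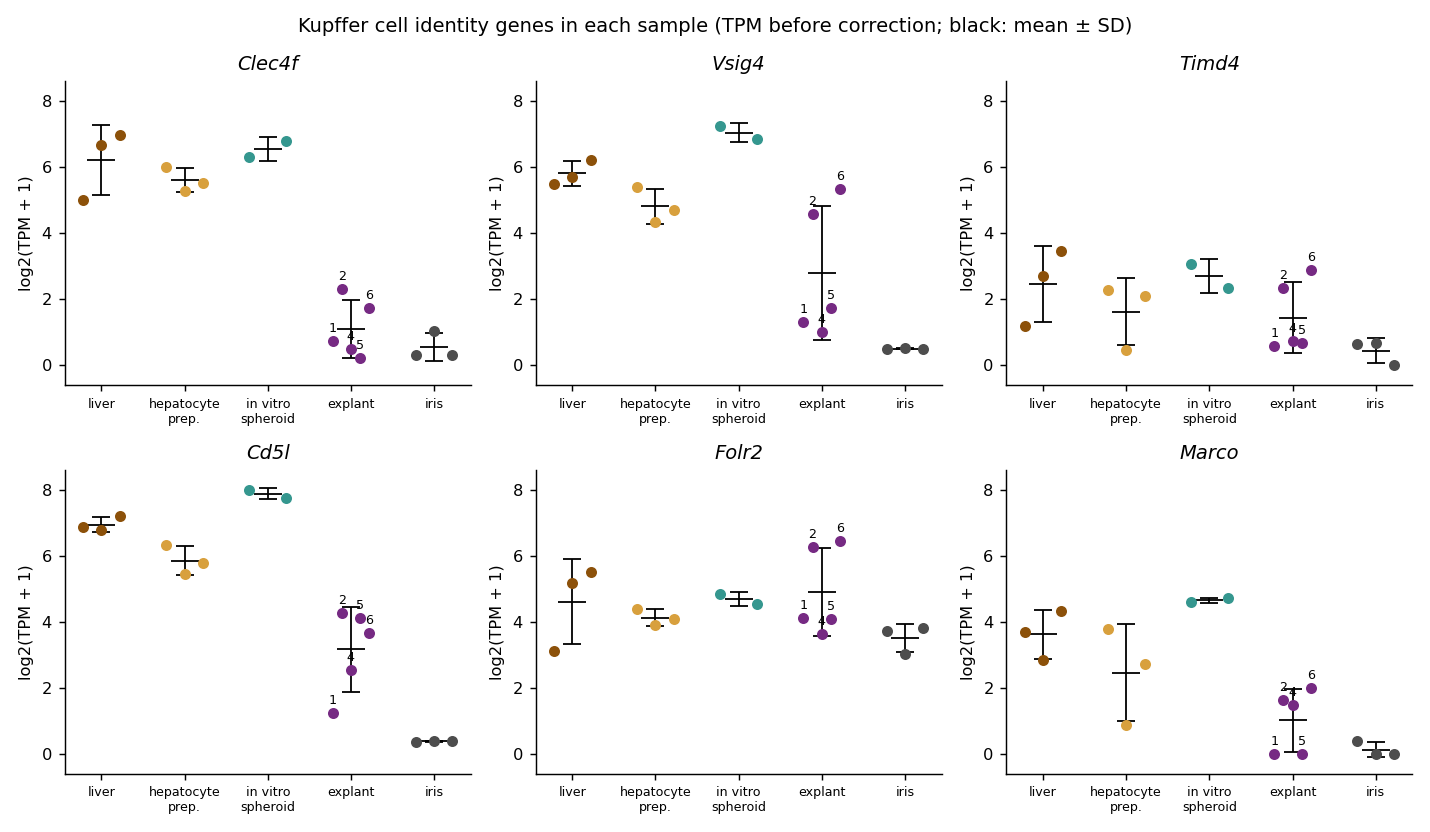
Each panel plots log2(TPM + 1), before correction for iris, of a member in every sample (dots, with explants numbered) by group, with the mean and SD of the log values in black. Clec4f and Cd5l lie lower in every explant than in every liver, hepatocyte preparation and spheroid sample, while Folr2 reaches its highest values in explants 2 and 6.

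All 6 members were still detected after isolation of hepatocytes. The preparation spins hepatocytes through a density gradient that removes most other cells, and the cell type given in the labels is hepatocyte. Clec4f was at 63.2, 37.9 and 44.8 TPM in the preparations, within the range of the livers. Cd5l was at 78.7, 42.9 and 53.9 TPM and Vsig4 at 41.05, 19.3 and 24.8 TPM, and for both genes the preparations lay below all livers. Folr2 (13.99 to 20.1 TPM), Timd4 (0.366 to 3.87 TPM) and Marco (0.826 to 12.7 TPM) overlapped with liver.

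None of the 6 members was called in preparations against livers by edgeR, where 2.31% of all genes were called lower. Cd5l came nearest, with a log2 fold change of -0.93 ± 0.22 (SE, adjusted p = 0.0582, edgeR), and at an unadjusted p under 0.05 it was joined by Vsig4 (-0.84 ± 0.31). DESeq2 and limma-voom called 0 of the 6 as well. The other members had fitted log2 fold changes from -1.01 for Timd4 to -0.67 for Folr2. The median over the 6 was -0.81, beside 0.01 over all genes. Of 14 genes of macrophages of most tissues, 13 were tested and 4 were lower (C1qa, C1qb, C1qc and Laptm5), with a list median of -1.58. No gene of 7 liver sinusoidal endothelial genes was called, and their median was -0.75.

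In TPM before correction for iris, the spheroids kept in vitro had the highest mean of the 5 groups for every member but Folr2. Cd5l reached 253 and 215 TPM and Vsig4 150 and 114 TPM, both above all 3 livers. Marco was at 23.3 and 25.1 TPM, also above all livers, whereas Clec4f (77.2 and 110 TPM), Timd4 (7.35 and 4.07 TPM) and Folr2 (27.5 and 22.4 TPM) lay within the livers' range. Against the hepatocyte preparations, 2 of the 6 members rose, and 8.13% of all genes tested were called higher.

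Vsig4 rose by a log2 fold change of 1.87 ± 0.29 (SE, adjusted p = 0.00371, edgeR) and Cd5l by 1.67 ± 0.23 (adjusted p = 0.00263, edgeR). Fitted values were 1.57 ± 0.69 for Marco (adjusted p = 0.133), 0.64 ± 0.27 for Clec4f (adjusted p = 0.126), 0.82 for Timd4 and 0.24 for Folr2. With the counts of each group pooled, the spheroids held Vsig4 at 2.28 times its liver rate (95% exact interval 1.99 to 2.61) and Clec4f at 1.05 times (0.949 to 1.17). The call of Vsig4 was lost in a single fit of all 5 groups (log2 fold change 1.85, adjusted p over the alternatives at most 0.128).

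Genes of other liver cells moved in both directions beside the members. Of the 13 macrophage genes tested 5 rose and 1 fell, among them Cd68, a lysosomal membrane protein (17.8, 15.2 and 18.6 TPM in the preparations, 130 and 89.6 TPM in spheroids, log2 fold change 2.33, adjusted p = 0.000814, edgeR), and Lyz2, the lysozyme of macrophages (log2 fold change 1.24, adjusted p = 0.0105). Without spheroid sample 1 the adjusted p of Lyz2 was 0.0505. Adgre1, which encodes F4/80, was at 13.2, 7.35 and 7.20 TPM in the preparations and 15.9 and 22.8 TPM in the spheroids (0.75, adjusted p = 0.162). Of 7 sinusoidal endothelial genes 3 fell and 0 rose, where 9.11% of all genes were called lower, Clec4g for instance from 110, 22.6 and 91.3 TPM to 19.1 and 13.4 TPM (-2.54, adjusted p = 0.0220, edgeR). The call of Clec4g was lost with limma-voom (-2.23, adjusted p = 0.0909), without preparation 3 (adjusted p = 0.0693) and without spheroid sample 1 or 2 (0.107 and 0.117). The part of any other cell type in the members' values was not tested.

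In the explants at 2 months post-tx, Clec4f was close to its level in iris. It was at 0.661, 3.93, 0.395, 0.173 and 2.32 TPM in explants 1, 2, 4, 5 and 6, from 3, 19, 2, 1 and 12 counts. Explants 2 and 6 lay above the irises, explants 1 and 4 inside the irises' range and explant 5 below it. Before correction for iris Cd5l was at 1.34, 18.3, 4.79, 16.4 and 11.5 TPM, so that every explant was above every iris and below every liver, preparation and spheroid sample.

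Vsig4 was at 1.47, 22.8, 0.986, 2.31 and 39.6 TPM in the same order, again above all irises but with explants 2 and 6 far above the other 3. Timd4 was also highest in explants 2 and 6, at 0.501, 4.00, 0.674, 0.591 and 6.38 TPM. Marco was at 0, 2.13, 1.77, 0 and 2.98 TPM, and the counts of 0 in explants 1 and 5 allow up to 0.551 and 0.442 CPM (counts scaled to the same depth). Folr2 was at 16.1, 75.4, 11.3, 15.9 and 86.0 TPM, with explants 2 and 6 above every other sample of the series.

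**Figure D2:**
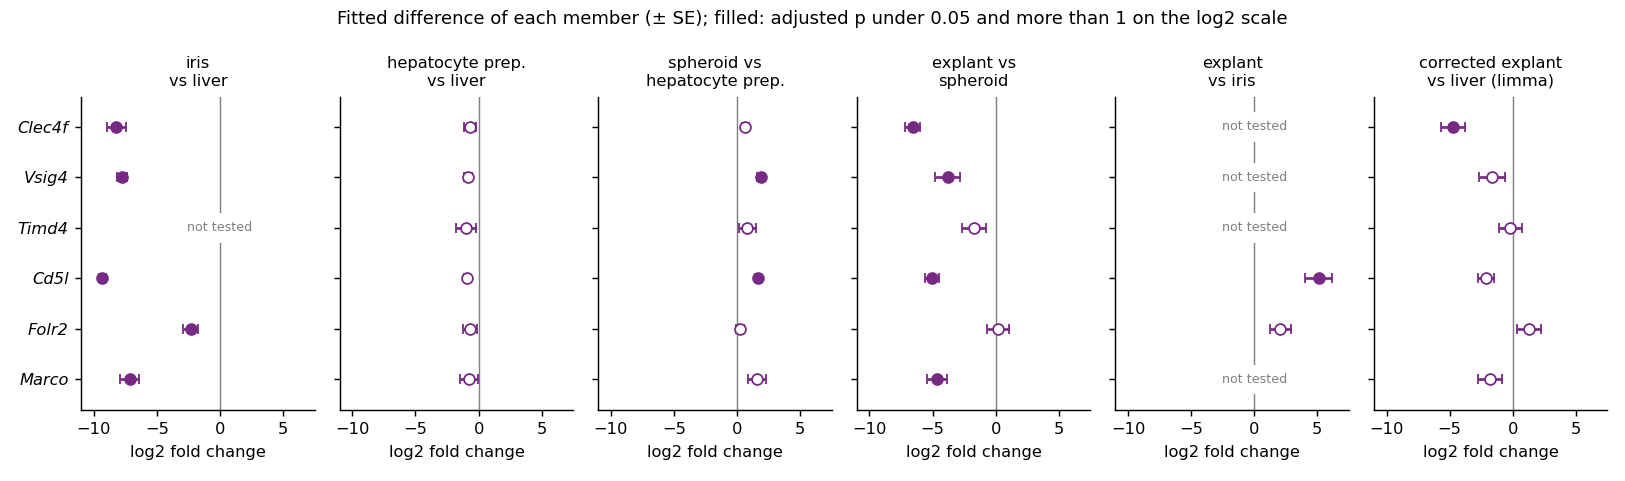
Fitted log2 fold change (horizontal axis, bars ± SE) of each member in 6 comparisons, with filled points for genes past both limits and open points for the others. Clec4f, Vsig4, Cd5l and Marco are filled and left of 0 in explants against spheroids, and Cd5l alone is filled in explants against irises, where 4 members could not be tested.

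Against the spheroids kept in vitro, 4 of the 6 members were lower in the explants, beside 15.5% of all genes tested called lower and 30.4% called higher. Marco had at most 12 counts in any explant and passed the filter on low counts through the spheroids. A call of Marco could thus only be lower, and the share of all genes is no measure for it. The log2 fold change was -6.56 ± 0.59 (SE) for Clec4f (adjusted p = 2.79e-05, edgeR), -5.02 ± 0.56 for Cd5l (adjusted p = 8.45e-05), -4.67 ± 0.81 for Marco (adjusted p = 0.000994) and -3.81 ± 0.99 for Vsig4 (adjusted p = 0.00845). Timd4 had a log2 fold change of -1.74 ± 0.95 (adjusted p = 0.132) and Folr2 of 0.19 ± 0.90 (adjusted p = 0.862). The median over the members was -4.24, where that of all genes was 0.25. These counts are those of the whole explant, iris included. With corrected TPM of the explants and limma, an alternative chosen after the data had been seen, 1 member was called, Clec4f with a log2 fold change of -5.06.

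Against the irises 2 of the 6 members passed the filter on low counts and 1 was higher, with 6.16% of all genes tested called higher. This was Cd5l, which had 1 count in each iris and passed the filter through the explants alone. A call of it could thus only be higher, and the share of all genes is no measure for it. Cd5l had a log2 fold change of 5.10 ± 1.06 (SE, adjusted p = 0.0148, edgeR), and Folr2 of 2.07 ± 0.82 (adjusted p = 0.134). The filter dropped Clec4f, Vsig4, Timd4 and Marco, and their pooled counts give ratios of explants to irises of 2.96 (95% exact interval 1.24 to 8.57) for Clec4f, 32.6 (11 to 159) for Vsig4, 6.47 (2.39 to 24.6) for Timd4 and 12.9 (2.13 to 530.03) for Marco. The call of Cd5l was lost with limma-voom (4.18) and without any of the 3 irises (5.04 without iris 1, 5.11 without iris 2 and 5.09 without iris 3), and its adjusted p ran from 3.69e-05 to 0.122 over the alternatives.

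The technical libraries of an explant lay closer together than the explants did for Vsig4 and Cd5l. Vsig4 had 42, 35 and 46 counts in the libraries of explant 6 and 27, 22 and 17 in those of explant 2, against 0 to 5 in each library of explants 1, 4 and 5. Cd5l did not share this order, with 26, 25 and 27 counts in explant 5, as many as in explant 2 (32, 23 and 18) and more than in explant 6 (19, 15 and 15). Clec4f was detected in 11 of 15 explant libraries and in 4 of 9 iris libraries, and Folr2 in all 15 and all 9.

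The members' proportions in the explants were not those of liver. Folr2 made up 80.3, 59.6, 56.7, 44.9 and 57.8% of the 6 genes' summed TPM in explants 1, 2, 4, 5 and 6, and 3.65, 11.5 and 10.6% in the livers. Clec4f made up 0.490 to 3.29% in the explants and 14.8 to 32.97% in the livers. Cd5l was the largest share in all livers (35.1 to 54.5%), and among the explants in explant 5 (46.4%). The groups did not overlap for Folr2 or Clec4f, and Folr2 made up 75.0 to 93.1% in the irises, where the other 5 genes rest on 0 to 4 counts each.

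**Figure D3:**
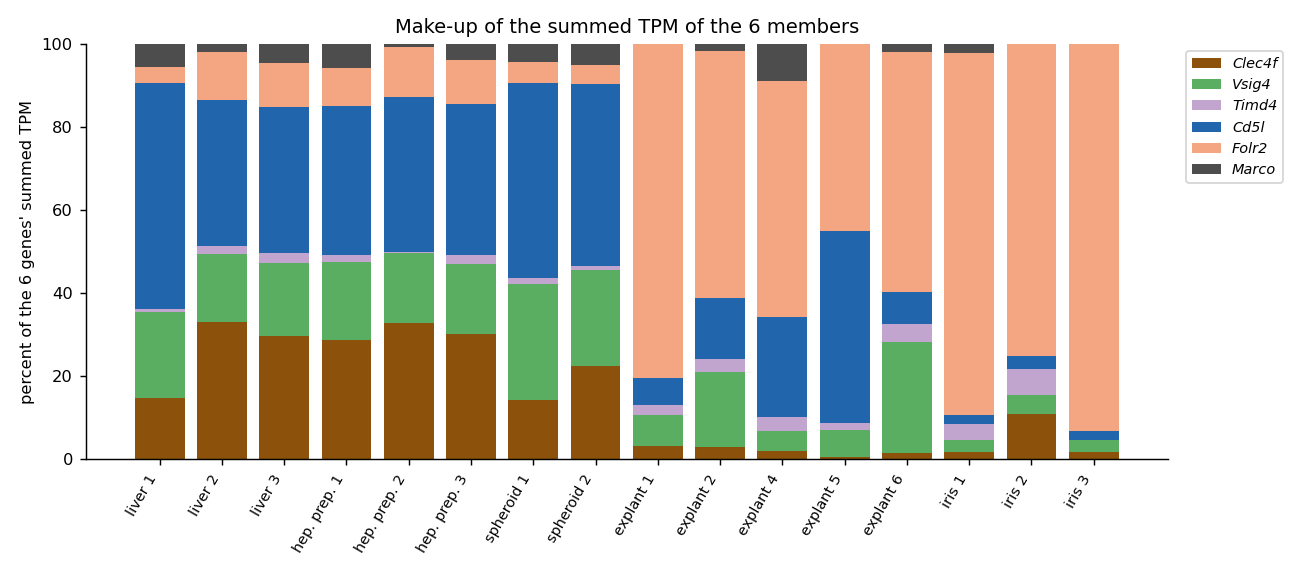
Stacked bars give the percent that each member contributes to the summed TPM of the 6 genes in each of the 16 samples. Folr2 takes 44.9% or more in every explant and iris and 12.1% or less in every liver, hepatocyte preparation and spheroid sample.

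TPM corrected for iris show what level the members would have in the graft if the iris in the explant had the same levels as the naïve irises. The correction, computed with the formula of the study's methods for all 5 explants, scales Cd5l to 6.05, 56.7, 23.9, 57.8 and 27.6 TPM in explants 1, 2, 4, 5 and 6, all below the livers. Clec4f came to 1.35, 11.2, 0, 0 and 4.93 TPM, where 0 stands for a level at or below the iris part. Vsig4 came to 6.26, 70.2, 3.42, 7.18 and 96.1 TPM, so that explant 2 lay within and explant 6 above the livers.

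Timd4 was at 11.7 and 15.01 corrected TPM in explants 2 and 6, above all livers, and at 1.05 to 1.92 in explants 1, 4 and 5. Marco was at 6.42, 8.90 and 7.12 in explants 2, 4 and 6, inside the livers' range, and at 0 in explants 1 and 5. These values are scaled up from 8, 7 and 12 counts and from 0 counts, so the 0 does not show absence. Folr2 was at 40.6, 213, 13.6, 29.02 and 194 corrected TPM, with explants 2 and 6 above every liver. With limma on log2(TPM + 1), 1 of the 6 members was lower in corrected explants than in livers, and 3.18% of all genes tested were called lower.

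This was Clec4f, which fell by 4.73 on the log2(TPM + 1) scale (SE 0.93, adjusted p = 0.0105, limma). Cd5l had a log2 fold change of -2.14 ± 0.65 (adjusted p = 0.0559, limma), Marco of -1.77 ± 0.95, Vsig4 of -1.64 ± 1.05, Timd4 of -0.18 ± 0.91 and Folr2 of 1.30 ± 0.97 (adjusted p from 0.239 to 0.901 for these 4). The median of all genes was 0.57 in this comparison and that of the members -1.71. In TPM before the correction, with the iris still in them, 4 members were lower, where 1617 of 20663 genes tested were called lower. The call of Clec4f in corrected explants was lost without liver 2 (-4.50) and without liver 3 (-4.36). Its adjusted p ran from 1.30e-05 to 0.273 over the alternatives.

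**Figure D4:**
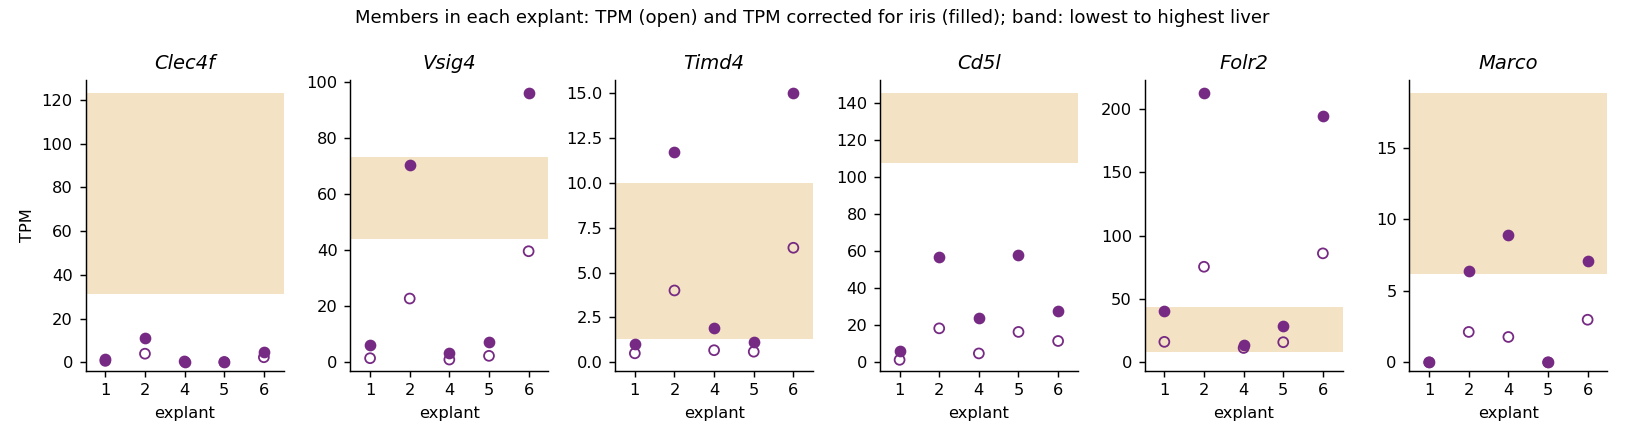
Open circles are TPM before and filled circles TPM after subtraction of the iris part, in each explant, and the band runs from the lowest to the highest liver, with a linear axis of its own for each gene. Clec4f and Cd5l stay under the band in all 5 explants, and Vsig4, Timd4 and Folr2 reach or pass it in explants 2 and 6.

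Against genes shared by macrophages of most tissues the members were scarce in the explants. The 14 such genes, among them Adgre1, Csf1r (the receptor of the macrophage growth factor CSF1) and the subunits of complement C1q, summed to 1626, 2984, 1291, 2032 and 3680 TPM in explants 1, 2, 4, 5 and 6. They summed to 1489, 671 and 818 TPM in the livers, 373, 234 and 308 in the preparations, 898 and 693 in the spheroids, and 1040, 970 and 968 in the irises. Explants 1, 2, 5 and 6 thus lay above every liver, and explant 4 above livers 2 and 3.

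Per 100 TPM of these genes, the 6 members had 1.24, 4.24, 1.54, 1.74 and 4.04 TPM in the explants and 14.2, 45.7 and 50.7 in the livers. The preparations had 58.9, 49.2 and 48.1, the spheroids 59.96 and 70.9, and the irises 1.35, 0.981 and 1.43. Explant 1 lay within the range of the irises, and explants 2, 4, 5 and 6 lay above all irises. All explants lay below the livers, preparations and spheroids, and their median was 3.81% of that of the livers. With the iris part subtracted from both sums the explants were at 1.23, 5.11, 2.02, 2.02 and 4.57, with explants 2, 4, 5 and 6 again above all irises. Without Folr2 in the members' sum, and before subtraction, the explants were at 0.244, 1.71, 0.668, 0.959 and 1.71, the irises at 0.174, 0.245 and 0.0983, and the livers at 13.7, 40.5 and 45.3. On that measure explant 1 lay within the range of the irises, and the other 4 explants lay above the irises and below the livers. Liver 1, whose macrophage sum was highest, had the lowest value among the livers, and its monocyte genes summed to 102 TPM against 45.96 and 30.6 in the other two.

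**Figure D5:**
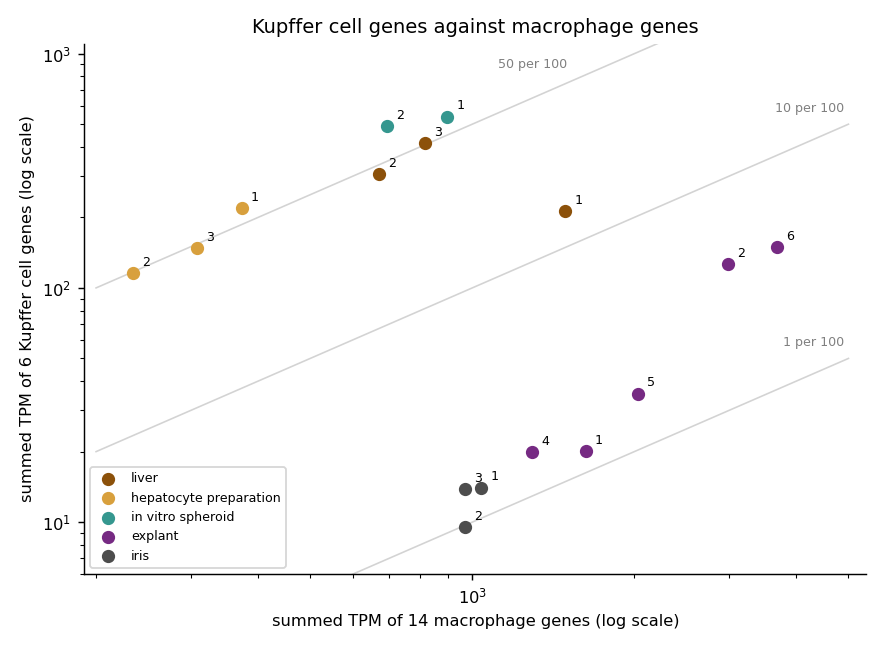
Summed TPM of the 6 members (vertical) against summed TPM of 14 macrophage genes (horizontal) in each numbered sample, both on log axes, with grey lines at 1, 10 and 50 members' TPM per 100. Preparations, spheroids and livers 2 and 3 lie near the line of 50, and explants and irises between 0.981 and 4.24.

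Some of the macrophage genes were higher in the explants. Against irises 6 of 14 were called higher and 0 lower, where 6.16% of all genes tested were called higher. The list median was 1.42, beside 0.01 for all genes. Adgre1, at 42.4, 118, 41.95, 62.7 and 153 TPM in explants and 17.6, 22.4 and 19.4 TPM in irises, had a log2 fold change of 2.22 ± 0.52 (SE, adjusted p = 0.0248, edgeR). This call was lost with limma-voom (1.96, adjusted p = 0.108), without explant 2 (2.06, adjusted p = 0.0510) and without any of the 3 irises (2.11 to 2.30, adjusted p from 0.0860 to 0.108). In corrected explants against livers 8 of 14 were higher, where 12.1% of all genes were, and Adgre1 had a log2 fold change of 3.56 ± 0.48 (adjusted p = 0.00253, limma). With edgeR on uncorrected counts it was 1.37 (adjusted p = 0.0546). Explants 2 and 6, highest for Vsig4, Timd4 and Folr2, were also highest for Adgre1 and had the lowest iris shares, and the part of either in the members' values was not tested.

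Of 14 further genes known from Kupffer cells, several of which hepatocytes, endothelium or iris also express, 7 were lower and 3 higher in explants than in spheroids, beside 15.5% and 30.4% of all genes. Slc40a1, the iron exporter ferroportin, was at 11.9, 24.7, 12.7, 19.3 and 26.9 TPM in the explants and 79.5 and 133 TPM in the spheroids (log2 fold change -3.06 ± 0.38, adjusted p = 0.000158, edgeR). Clec1b, which encodes the podoplanin receptor CLEC-2, was at 0.168 to 0.902 TPM in the explants and 8.04 and 9.46 TPM in the spheroids (-4.62 ± 0.49, adjusted p = 6.41e-05, edgeR). It passed the filter on low counts through the spheroids. A call of Clec1b could thus only be lower, and the share of all genes is no measure for it. The fits of Slc40a1 and Clec1b are of whole explants, iris included. With corrected TPM and limma both calls were lost, at -0.91 (adjusted p = 0.193) for Slc40a1 and -2.32 (adjusted p = 0.146) for Clec1b. Fcna, the gene of the lectin ficolin A, was at 3.57, 41.3, 3.55, 9.66 and 71.7 TPM in explants 1, 2, 4, 5 and 6, the order of Vsig4 for explants 2 and 6. In corrected explants against livers 1 of the 14 was lower (Clec1b, -2.59, adjusted p = 0.0222, limma) and 1 higher (Hmox1), beside 3.18% and 12.1% of all genes. The call of Clec1b was lost with the deposited corrected columns (-2.37, adjusted p = 0.0935), with a pseudocount of 0.1 (-3.99, adjusted p = 0.0721) and without any of the 3 livers (-2.81 to -2.48, adjusted p from 0.0752 to 0.111).

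Another group of genes marks perivascular and other tissue macrophages. Of 8 such genes 5 were higher and 1 lower in explants than in spheroids, where 30.4% of all genes were called higher and 15.5% lower. These explant counts include the iris, and against irises 0 of the 8 were called by edgeR, where 6.16% of all genes were called higher. Their summed TPM had a mean of 965 in explants, 836 in irises and 118 in spheroids. Ccl8 against irises had a log2 fold change of 3.29 (adjusted p = 0.0583, edgeR), and it was called with DESeq2 (adjusted p = 0.00549). In corrected explants against livers 3 were higher and 0 lower, beside 12.1% and 3.18% of all genes. Ccl8, a chemokine, was at 62.8, 232, 24.8, 54.5 and 331 TPM in explants 1, 2, 4, 5 and 6, at 16.4, 8.79 and 22.6 TPM in irises and 10.9, 2.76 and 5.16 TPM in livers (corrected explants against livers 5.39 ± 0.82, adjusted p = 0.00391, limma). F13a1, the A subunit of coagulation factor XIII, was at 17.7, 45.7, 15.4, 15.5 and 79.1 TPM in explants, 10.95 to 17.4 TPM in irises and 0.359 to 1.06 TPM in livers (4.90 ± 0.79, adjusted p = 0.00502, limma). For F13a1 every iris was above every liver and explants 1, 4 and 5 were near the irises, whereas the irises and livers overlapped for Ccl8.

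Signals known to hold the Kupffer cell program were measured in the same libraries. Of 8 such genes 7 were tested, and 3 were higher and 1 lower in explants than in spheroids, near the shares of all genes called (30.4% and 15.5%). In corrected explants against livers 2 of 7 were higher and 2 lower, beside 12.1% and 3.18% of all genes. Csf1 was at 25.3 to 32.04 TPM in explants, 21.6 to 23.4 TPM in irises and 4.12 to 6.93 TPM in livers. Gdf2, which encodes BMP9 and in liver comes from stellate cells, was at 57.4, 19.1 and 22.5 TPM in livers, 9.16 and 5.39 TPM in spheroids, and 0.182, 2.40, 0, 0.430 and 1.60 TPM in explants. Of 7 sinusoidal endothelial genes 5 were lower and 0 higher in corrected explants than in livers, and Clec4g was at 0, 8.52, 0.595, 0.522 and 5.83 TPM in the explants before correction, with explants 2 and 6 again highest.

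The groups were ordered by mean TPM before correction, with the iris still in the explants. They ran from in vitro spheroids through livers and hepatocyte preparations to explants and irises for Clec4f, Vsig4, Timd4, Cd5l and Marco. For Cd5l no neighbours in this order overlapped, with means of 234 ± 26.7 (SD, n = 2), 123 ± 19.8 (n = 3), 58.5 ± 18.4 (n = 3), 10.5 ± 7.31 (n = 5) and 0.303 ± 0.011 TPM (n = 3). For Clec4f the preparations (48.6 ± 13.1, n = 3) and explants (1.497 ± 1.60, n = 5) did not overlap and all other neighbours did. Vsig4 had overlap of preparations (28.4 ± 11.3, n = 3) with explants (13.4 ± 17.3, n = 5) and of no other neighbours, and Marco was separated between spheroids and livers. For Timd4 all neighbours overlapped. Folr2 ran from explants (40.9 ± 36.5, n = 5) through livers (28.99 ± 18.9, n = 3), spheroids, preparations and irises (10.8 ± 3.16, n = 3), and its 3 highest groups overlapped.

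Over the 16 samples, Clec4f, Vsig4, Cd5l and Marco were alike in log2(TPM + 1), with Pearson's r from 0.87 to 0.94, and Folr2 had an r of 0.25 with Clec4f and 0.75 with Timd4. These are descriptions over samples of 5 tissues that share differences in depth and in liver content. With the members set aside from the 19450 genes with a mean of at least 1 TPM, the gene most like Cd5l was Eepd1 (r = 0.98), followed by Slc40a1 and Slc17a1. Most like Clec4f were Sar1b (0.97), Esd and Cdk18, most like Vsig4 Slc39a11 (0.96), Gm12840 and Sppl2a, and most like Marco Gm16573 (0.94), Tor1a and Rhobtb1. Most like Timd4 were Ocstamp (0.88), Fcna (0.87) and Bid, and most like Folr2 Gm27867 (0.85), Ccl24 (0.83) and Cfp (0.81).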

How the data were processed

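The authors aligned Smart-seq3 reads with TopHat2, removed duplicate reads, and counted reads per gene in mm10 with featureCounts 1.4.6-p5 per the file headers, without regard to strand and with reads given to every overlapping gene. They deposited counts per library (48) and per sample, TPM, and explant values corrected for iris, a signal in units of TPM. In the deposited column of explant 4, 16.5% of genes follow the formula of the methods, so the correction was recomputed from TPM for all explants.

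Technical libraries were summed. Differences in counts came from the quasi-likelihood test of edgeR 4.0.16, after filterByExpr and TMM scaling, and those in corrected TPM from limma 3.58.1 on log2(TPM + 1), in R 4.3.3, with p-values adjusted over all genes tested. Comparisons share samples. Ratios of pooled counts carry exact Clopper-Pearson intervals (95%), and a count of 0 was read as at most 3 counts. The fits were tested on simulated data. Alternatives were DESeq2 1.42.0, limma-voom, other scalings, filters and fits, library a alone, a replicate block and each sample left out.

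The 6 members, the lists and the choice of genes to name (members, the first 3 of each list and those called, and for likeness the 3 genes of highest r) were chosen with earlier results of these data known. The genes most like the mean of the 6 members are not reported here. Figures were drawn with matplotlib 3.10.9 in Python 3.11.15.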

Additional observations from a re-analysis of the deposited data

How the results depend on the processing

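Over the alternatives, 456 of the members' fitted values kept their direction and their side of the limits, 20 came to pass the limits, 11 no longer did and 11 changed sign. Members called in explants against irises were 2 of 2 tested with DESeq2 and 0 of 2 with limma-voom. Those settings called 1219 and 541 of 16764 genes higher, but Cd5l passed this filter through the explants alone and could only be higher. With at least 10 counts in every sample of a group 0 of 1 tested was called, and with a sample left out 0 to 1. All genes called higher were 941 of 15638 with the former, and 554 to 1199 with a sample left out. In hepatocyte preparations against livers 1 was called with library size alone, and 0 to 1 with a sample left out. All genes called lower were 414 of 12236 with library size alone, and 4 to 338 with a sample left out. In spheroids against preparations 1 was called in a single fit of all 5 groups, and 2 to 3 with a preparation left out. All genes called higher were 1310 of 17064 in the single fit, and 747 to 970 with a preparation left out. In explants against spheroids 1 was called with corrected TPM and 4 to 5 with an explant left out. All genes called lower were 224 of 20601 with corrected TPM, and 2492 to 2785 with an explant left out. In irises against livers 3 of the 3 tested were called with technical library a alone, and 5 to 6 with a sample left out. All genes called lower were 2943 of 13140 with library a alone, and 3431 to 3661 with a sample left out. In corrected explants against livers 4 were called with TPM before correction and 4 with edgeR on uncorrected counts. Those settings called 1617 of 20663 and 3248 of 16506 genes lower. With a mean of at least 10 TPM 2 of the 4 tested were called, beside 498 of 10935 genes called lower. With hepatocyte preparations and spheroids also in the fit 2 were called, and with a sample left out 0 to 2. All genes called lower were 1168 of 20656 in that fit, and 213 to 801 with a sample left out.

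Folr2 in explants against spheroids, at 0.19, changed sign with limma-voom (-0.45), library a alone (-0.13) and a sample left out (-0.32 to 0.44). In corrected explants against livers Folr2 was -0.30 with edgeR on uncorrected counts, and Timd4 was 0.061 with the deposited corrected columns and -0.81 to 0.32 with a sample left out. The cause was not tested. The members' TPM per 100 macrophage TPM in explants was 3.59 to 6.32% of that in livers with a sample left out.

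Samples with the same replicate number had correlated deviations of -0.11 to 0.14, so the numbers were not taken to pair samples. With a replicate block, 0 members were called in corrected explants against livers (Timd4 0.40), Folr2 was -0.037 in explants against spheroids, and Timd4 was called there. Like those of all other genes, the calls of Adgre1, Ccl8, F13a1 and Clec1b in corrected explants against livers were lost with it (adjusted p from 0.273 to 0.331).

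The numbers of genes called over all genes, with higher and lower counted apart, moved by more than 1.5 times in 56 of 198 cases. Called higher and lower were 541 to 1515 (1032 as reported) and 22 to 460 (53) in explants against irises, 4 to 217 (50) and 4 to 1014 (283) in preparations against livers, 705 to 1531 (996) and 761 to 1637 (1116) in spheroids against preparations, 1064 to 6684 (5192) and 224 to 5032 (2642) in explants against spheroids, 3745 to 6803 (4606) and 1973 to 5334 (3422) in irises against livers, and 0 to 7416 (2496) and 0 to 3248 (656) in corrected explants against livers. Depth limits Timd4 and Marco most, with 33 and 60 counts in the sample where each was highest.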
